A study of Homo sapiens with 18 samples.

Results

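The S100 calcium-binding proteins were followed through 10 genes of the family: *S100A2*, *S100A3*, *S100A4*, *S100A6*, *S100A10*, *S100A11*, *S100A13*, *S100A14*, *S100A16* and *S100P*. They were chosen by name, as the non-control spots carrying one of these symbols, and made up 10 of the 36204 gene names on the array, read by 11 probes with 1 spot each. RNA abundance was measured on 18 one-colour Agilent microarrays, with 3 biological replicates per group in 6 groups. The HT29 line comes from a human colorectal adenocarcinoma and is sensitive to oxaliplatin (OXA), a platinum drug that damages DNA, and HTOXAR3 is its resistant subline, derived by continuous exposure to rising OXA doses. Each line was left untreated, given OXA for 24 h, or given OXA plus Curcumin, a plant polyphenol, for 24 h. OXA was used at 10 µM in HT29 and at 30 µM in HTOXAR3, and Curcumin at 10 µM in both. A group with Curcumin alone was not analysed here, so each effect of Curcumin is an effect on top of OXA. Because each line received its own OXA dose, line and dose cannot be told apart in any comparison of treated lines. HTOXAR3 is a single derived subline, and the replicates are cultures of that subline.

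S100 proteins are small proteins with a pair of EF-hand motifs, the helix-loop-helix folds that hold calcium. Most act as dimers that change shape on binding calcium and then grip a target protein, so that they pass calcium signals on inside the cell, and several are also released and bind the receptor RAGE, encoded by *AGER*, on the surface of other cells. Most of the genes lie in one cluster on the long arm of chromosome 1, and several members are known for raised levels in colorectal tumours.

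The 10 genes were well above the local background on all 18 arrays, with no flagged and no saturated spot. Their highest raw intensity was 287092, against a saturation value of at least 778650 on every array. Over all probes, 52.4% to 63.6% of non-control spots were well above background, arrays of one group correlated at 0.985 or higher, and no pair of arrays correlated above 0.995. The array with the lowest share was HTOXAR3 untreated replicate 2. It also carried the intestinal transcription factor *CDX2* at 6.62, against 4.17 and 4.01 in the other untreated HTOXAR3 replicates and at least 6.64 in untreated HT29. Leaving it out is reported where it changes a call. Of 10 colorectal epithelial markers, 7 were well above background on all 18 arrays (*EPCAM*, *VIL1*, *CDX1*, *KRT8*, *KRT18*, *KRT20* and *LGALS4*), and 3 (*VIL1*, *LGALS4* and *CDH17*) were called lower in HTOXAR3 when the untreated lines were compared. Under OXA in HT29 *VIL1* was called higher (1.06, 2.08-fold, adjusted p = 1.16e-06) and *CEACAM5* lower (-2.15, adjusted p = 0.00639), and adding Curcumin in HTOXAR3 raised *KRT20* (0.52) and lowered *LGALS4* (-0.62). Of 9 markers of cells that a pure line should lack, *COL1A2* and *ALB* were above background on 0 arrays, while *PTPRC*, *CD68* and *VWF* passed on all 18 and *CD3E* on 17. Among these 9 the test called *CD68* higher after Curcumin was added in both lines, with 7.69 to 8.01 in HT29 under the combination and 6.57 to 6.75 under OXA. It also called *COL1A1* higher under OXA in HT29 (adjusted p = 0.00139), with 3.51, 3.50 and 4.17 untreated, where it was well above background on 0 arrays, and 5.03, 5.12 and 5.48 under OXA. The part of these markers in the results was not tested. The RNA came from whole cultures, so that a change in which cells made up the culture and a change within each cell cannot be told apart.

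Of the 10 genes, 9 were read on chromosome 1, with probes between positions 151955420 and 153591344 of GRCh37. On that build they ran in the order *S100A10*, *S100A11*, *S100A6*, *S100A4*, *S100A3*, *S100A2*, *S100A16*, *S100A14* and *S100A13*, all on the minus strand. *S100P* lay apart on the plus strand of chromosome 4 (6698819 to 6698878). Levels are normalised log2 intensities, and they are set only against the same gene in other groups, since probes differ in brightness for reasons other than RNA abundance.

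Across the treatment groups the members did not move as one family. OXA raised *S100A3*, *S100A13* and *S100A16* in both lines and *S100A14* in HT29. Adding Curcumin to OXA raised *S100P* in both lines, and lowered *S100A4* and *S100A13* in HTOXAR3. Untreated HTOXAR3 carried more *S100A2*, *S100A13*, *S100A14* and *S100A16* and less *S100A10* than untreated HT29. *S100A6* and *S100A11* were not called in any comparison as fitted. On a 75th percentile scaling *S100A6* was called lower in 4 comparisons with untreated cells, and *S100A11* was called higher in HTOXAR3 under several alternatives, which are given with that gene. A gene was called when its Benjamini-Yekutieli adjusted p was below 0.05 in a limma fit across all names and its fold exceeded 1.2 in either direction.

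Comparing the untreated lines asked which members differ between resistant and sensitive cells. Of the 10 genes, 4 were called higher in HTOXAR3 and 1 lower, where 6.26% of all names were called higher and 5.28% lower. Among names well above background on every array, called detected names from here on, these shares were 11.5% and 10.1%. The median difference of the 10 genes was 0.30 on the log2 scale, against -0.03 over all names. The replicates of the lines did not overlap for 9 of the 10 genes, *S100A3* being the exception, and the same held for 53.9% of the names well above background on every array and 32.6% of all names. Under OXA, 3 were called higher in HTOXAR3 and 3 lower, against 7.14% and 6.98% of all names and 13.2% each of detected names, with a median of 0.02 and -4e-04 over all names. Under OXA plus Curcumin, 2 were called higher and 2 lower, against 6.95% and 6.92% of all names and 13% and 12.9% of detected names, with medians of -0.03 and 0.01. Only *S100A2*, *S100A16* and *S100A10* were called in all 3 comparisons of the lines, and their directions were the same each time. At an unadjusted p under 0.05 limma had 8 members higher in HTOXAR3 and 2 lower untreated. Under OXA, and again under OXA plus Curcumin, it had 4 higher and 3 lower. No share of all names was computed at that threshold, here or below, so such counts have nothing to be judged against.

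**Figure D1:**
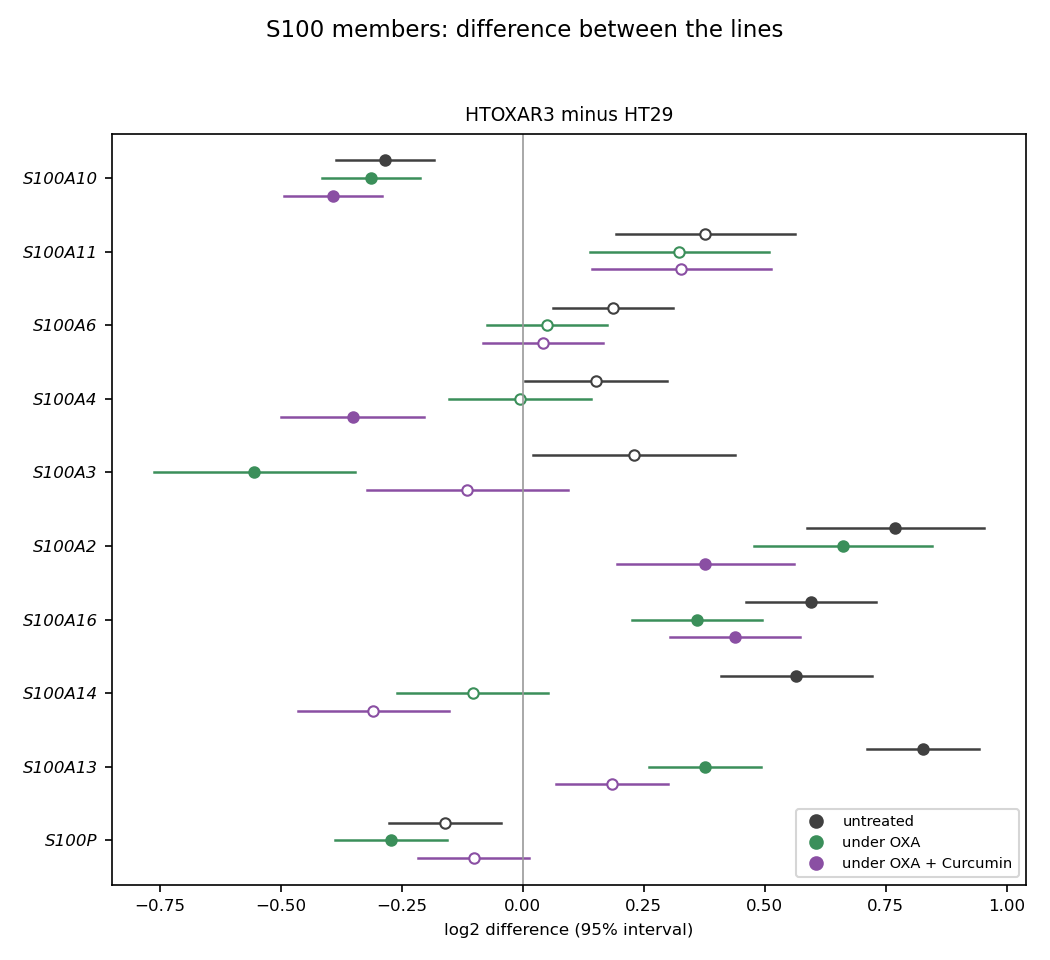
Difference between HTOXAR3 and HT29 (log2, HTOXAR3 minus HT29) for each member, untreated, under OXA and under OXA plus Curcumin, listed in the order of the probes on chromosome 1 with *S100P* last. Bars are 95% intervals, filled points were called and open points were not. *S100A2*, *S100A16* and *S100A10* are filled in all 3 conditions, while *S100A14* moves from 0.56 untreated to -0.31 under the combination.

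OXA alone was then compared with no treatment within each line. In HT29, 4 members were called higher, against 8.33% of all names, and 0 lower, against 7.62%, and among detected names these shares were 15.9% and 15.1%. In HTOXAR3, 3 were called higher, against 5.31%, and 0 lower, against 4.94%, with 10.2% and 9.83% of detected names. At an unadjusted p under 0.05 limma had 4 higher and 1 lower (*S100A2*) in HT29, and 3 higher and 4 lower in HTOXAR3. No share of all names was computed for these counts. With Benjamini-Hochberg adjustment *S100A2* was called lower in both lines. The median response was 0.08 in HT29 and -0.02 in HTOXAR3, against -0.01 and 0.01 over all names. A scaling of the arrays to their 75th percentile instead of quantile normalisation also called *S100A6*, *S100A10* and *S100P* lower under OXA in both lines, for 7 and 6 calls. On that scaling their differences lay between -0.36 and -0.27, while the median of all names itself stood at -0.10 in HT29 and -0.19 in HTOXAR3. Of all names, that scaling called 3057 higher and 3053 lower in HT29, against 3016 and 2758 as fitted. In HTOXAR3 it called 2143 higher and 2095 lower, against 1921 and 1788.

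Adding Curcumin was compared with OXA alone. In HT29, 1 member was called higher, against 3.14% of all names, and 0 lower, against 2.39%. The shares of detected names were 5.96% and 4.92%. In HTOXAR3, 1 was called higher, against 4.43%, and 2 lower, against 4.41%, with 8.47% and 8.81% of detected names. The limma counts at an unadjusted p under 0.05 were 1 higher and 2 lower in HT29, and 2 higher and 4 lower in HTOXAR3. They have no share of all names beside them. The combination was also set against no treatment, which uses the same untreated arrays as the OXA comparison. In HT29, 5 were called higher, against 9.56%, and 1 lower, against 9.02%, with 17.6% and 18% of detected names. In HTOXAR3, 3 were called higher, against 8.82%, and 2 lower, against 8.64%, with 16.5% and 16.9% of detected names. The counts at an unadjusted p under 0.05 were 5 higher and 1 lower in HT29, and 3 higher and 5 lower in HTOXAR3. On the 75th percentile scaling *S100A6* and *S100A10* were also called lower in both lines, for 8 and 7 calls, with differences between -0.38 and -0.27 where the median of all names stood at -0.15 in HT29 and -0.18 in HTOXAR3. Of all names, that scaling called 3386 higher and 3758 lower in HT29, against 3460 and 3264 as fitted. In HTOXAR3 it called 3335 higher and 3155 lower, against 3195 and 3127. The median of the 10 genes was 0.27 in HT29 and -0.17 in HTOXAR3 for the combination, and -0.08 and -0.12 for the addition of Curcumin. Over all names those medians lay between -0.03 and -0.01.

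**Figure D2:**
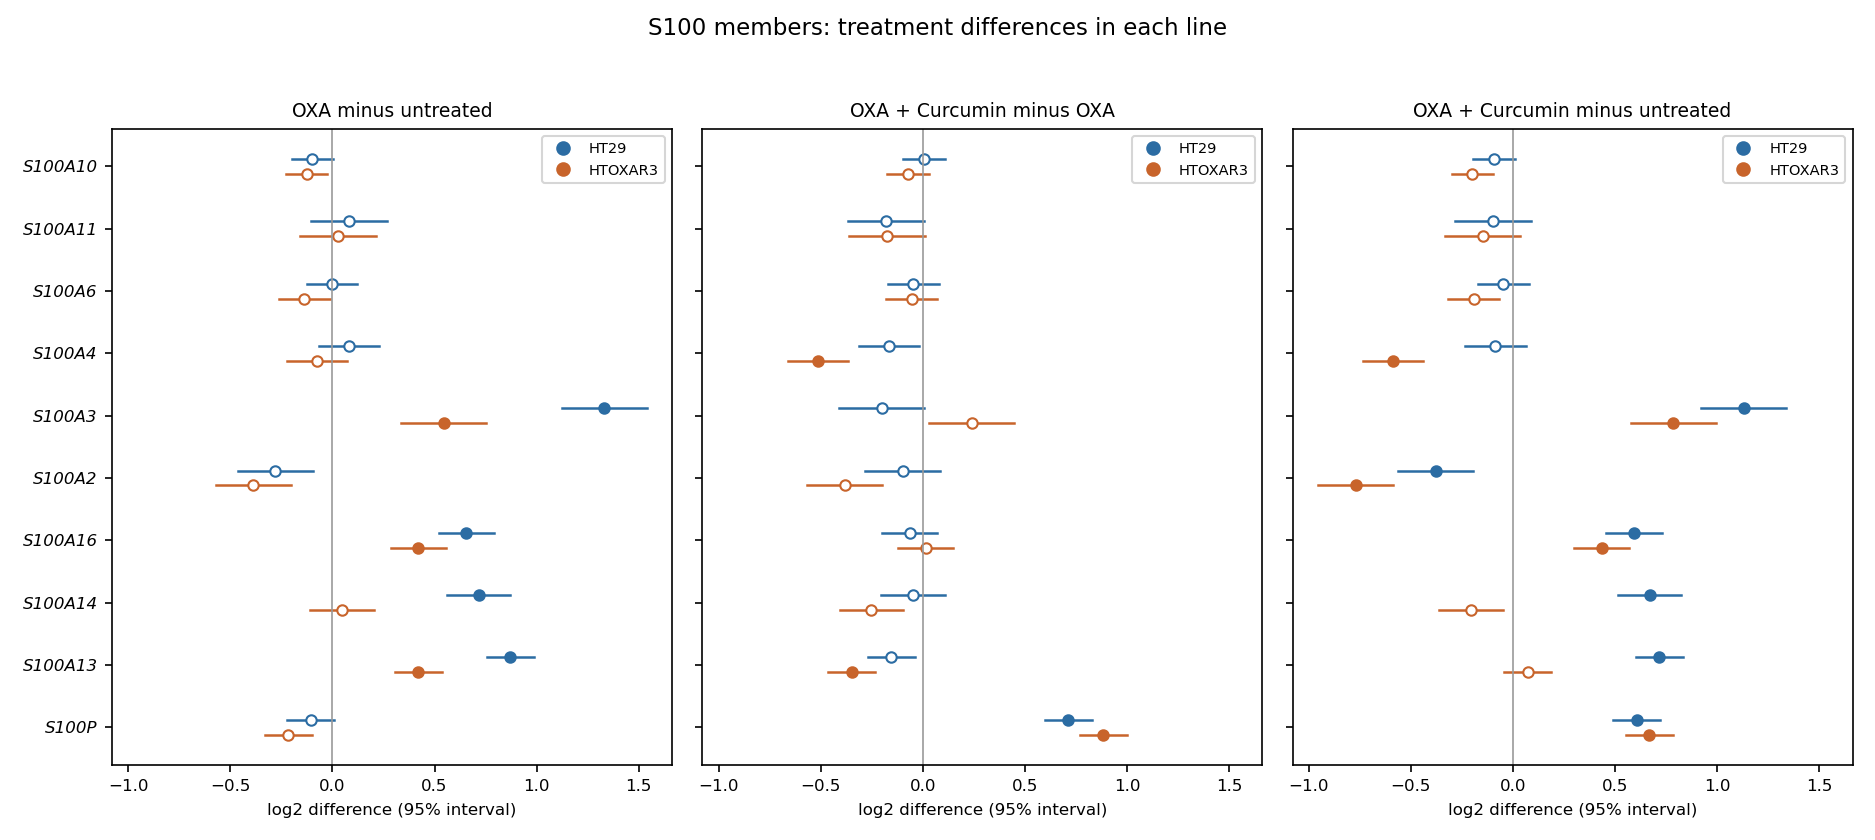
Treatment differences (log2) of each member in HT29 and HTOXAR3: OXA minus untreated, OXA plus Curcumin minus OXA, and OXA plus Curcumin minus untreated. Bars are 95% intervals, and filled points were called. *S100A3* shows the largest response, 1.33 in HT29 under OXA, and *S100P* the 2 largest effects of added Curcumin, 0.71 and 0.88.

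The neighbours *S100A16*, *S100A14* and *S100A13* all rose under OXA in HT29. *S100A13* takes part in the release of growth factors and cytokines that lack a signal peptide, such as FGF1, and *S100A14* and *S100A16* are epithelial members that can pair with each other. Because these 3 genes lie side by side and moved together in HT29, the promoters of *S100A13*, *S100A14* and *S100A16* are shown with that of *S100P*, the member called higher in both lines when Curcumin was added. RefSeq (GRCh38.p14) gave 14 promoters for the 10 genes, each with 250 bases before and 50 bases from the transcription start. For *S100A13* and *S100A16*, which have several, the first listed is printed. Each sequence reads 5′ to 3′ along the gene, and capitals mark matches to the motifs searched on both strands, which for the opposite strand appear as the reverse complement. The motifs were the TATA box, spelled TATAAA, and the GC box, bound by factors of the Sp family and spelled GGGCGG. The site of the stress-activated factor AP-1 was searched as TGANTCA, and the core of the antioxidant response element, bound by NRF2, as TGACNNNGC. The fifth was the NF-kB consensus.
S100A16 (minus strand of chromosome 1, chr1:153613088-153613387): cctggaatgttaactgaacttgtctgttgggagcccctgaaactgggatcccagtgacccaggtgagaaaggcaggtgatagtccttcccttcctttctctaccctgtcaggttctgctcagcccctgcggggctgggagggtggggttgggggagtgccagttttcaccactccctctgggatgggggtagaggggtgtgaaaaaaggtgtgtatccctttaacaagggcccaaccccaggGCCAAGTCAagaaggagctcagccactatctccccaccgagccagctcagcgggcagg
S100A14 (minus strand of chromosome 1, chr1:153616276-153616575): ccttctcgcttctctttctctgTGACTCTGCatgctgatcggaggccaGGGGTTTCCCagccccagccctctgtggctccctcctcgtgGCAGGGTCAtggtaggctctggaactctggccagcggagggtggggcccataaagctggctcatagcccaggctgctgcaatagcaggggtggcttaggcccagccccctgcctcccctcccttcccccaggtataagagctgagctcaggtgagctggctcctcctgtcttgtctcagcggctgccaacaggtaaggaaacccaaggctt
S100A13 (minus strand of chromosome 1, chr1:153634312-153634611): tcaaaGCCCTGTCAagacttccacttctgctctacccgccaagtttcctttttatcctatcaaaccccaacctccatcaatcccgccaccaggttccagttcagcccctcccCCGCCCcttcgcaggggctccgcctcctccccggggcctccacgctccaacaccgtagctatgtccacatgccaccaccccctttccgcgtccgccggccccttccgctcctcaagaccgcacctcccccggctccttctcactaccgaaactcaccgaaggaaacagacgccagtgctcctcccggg
S100P (plus strand of chromosome 4, chr4:6693628-6693927): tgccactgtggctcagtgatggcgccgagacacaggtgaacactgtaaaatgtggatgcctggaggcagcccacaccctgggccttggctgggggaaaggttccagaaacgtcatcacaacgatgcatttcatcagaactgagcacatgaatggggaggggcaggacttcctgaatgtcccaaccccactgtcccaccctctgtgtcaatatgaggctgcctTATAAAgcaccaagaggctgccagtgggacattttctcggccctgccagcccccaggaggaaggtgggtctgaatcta
The *S100P* promoter held a TATA box at position -28 from the start, which 11.5% of all 35116 promoters held and 3 of the 14, the others being that of *S100A4* and the second listed for *S100A13*. *S100A14* held the NF-kB consensus at -202, which 11.3% of all promoters held and no other of the 14 promoters did. TGACNNNGC stood in the printed promoters of *S100A13*, *S100A14* and *S100A16*, the 3 of 14 that held it, and in 13.3% of all promoters. The first *S100A13* promoter also held a GC box at -138, on the opposite strand. GC boxes stood in 6 of the 14 promoters and in 45% of all, and the AP-1 site in 2 of 14 (*S100A2* and *S100A3*) and in 7.71% of all. These are matches of letters and were not measured as sites.

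*S100A13* rose under OXA in both lines and started from a higher level in HTOXAR3. In HT29 it stood at 14.56, 14.52 and 14.46 untreated, at 15.33, 15.37 and 15.44 under OXA, and at 15.18, 15.22 and 15.28 under OXA plus Curcumin. In HTOXAR3 it stood at 15.34 in each untreated replicate, at 15.70, 15.83 and 15.75 under OXA, and at 15.43, 15.43 and 15.38 under the combination. Untreated HTOXAR3 thus already lay within the range of OXA-treated HT29, and HT29 untreated was below every other group. The untreated lines differed by 0.83 ± 0.05 (log2, SE, 1.77-fold, adjusted p = 6.23e-07). The response to OXA was 0.87 ± 0.05 in HT29 (1.83-fold, adjusted p = 3.62e-07) and 0.42 ± 0.05 in HTOXAR3 (1.34-fold, adjusted p = 0.000766). Adding Curcumin lowered *S100A13* in HTOXAR3 by 1.27-fold (-0.35 ± 0.05, adjusted p = 0.00436). Against untreated HTOXAR3 the combination gave 0.07, with a 95% interval from -0.04 to 0.19, and -0.01 on the 75th percentile scaling. In HT29 the same addition gave -0.15 and was not called (adjusted p = 0.932). Of the 3 slides, slides 2 and 3 each held all 6 groups, with 1 or 2 arrays of a group, while slide 1 held only 2 HT29 arrays. A value within a slide, here and below, thus rests on 1 or 2 arrays per group and reuses part of the same data. The OXA response within slides 2 and 3 was 0.85 and 0.98 in HT29 and 0.36 and 0.45 in HTOXAR3.

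*S100A14* rose under OXA in HT29 and did not pass the test in HTOXAR3. Its levels in HT29 were 11.96, 11.90 and 11.89 untreated, 12.62, 12.67 and 12.60 under OXA, and 12.72, 12.62 and 12.41 under the combination. In HTOXAR3 they were 12.44, 12.51 and 12.48 untreated, 12.49, 12.60 and 12.49 under OXA, and 12.21, 12.28 and 12.34 under the combination. HT29 untreated was again the lowest group, HTOXAR3 under the combination came next, and the remaining 4 groups overlapped at least one neighbour. The response to OXA was 0.72 ± 0.07 in HT29 (1.64-fold, adjusted p = 4.4e-05). In HTOXAR3 it was 0.05, with a 95% interval from -0.11 to 0.20, and 0.09 on the 75th percentile scaling, or 0.28 relative to the median of all names. Untreated HTOXAR3 exceeded untreated HT29 by 0.56 ± 0.07 (1.48-fold, adjusted p = 0.000535), and under the combination the order of the lines was the other way round at -0.31, which was not called (adjusted p = 0.0632). It was called with an offset of 50, without dim probes, with Benjamini-Hochberg adjustment and without HT29 combination replicate 3, while on the 75th percentile scaling it was -0.20 (adjusted p = 0.672). Within slides 2 and 3 the OXA response in HT29 was 0.78 and 0.71.

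*S100A16* rose under OXA in both lines, and adding Curcumin gave no call in either. It stood at 14.08, 14.14 and 14.01 in untreated HT29, 14.78, 14.69 and 14.72 under OXA and 14.70, 14.67 and 14.64 under the combination. HTOXAR3 gave 14.63, 14.69 and 14.70 untreated, 15.04, 15.14 and 15.09 under OXA and 14.98, 15.17 and 15.17 under the combination. The groups formed 3 tiers: untreated HT29, then treated HT29 with untreated HTOXAR3, then treated HTOXAR3. The OXA response was 0.66 ± 0.06 in HT29 (1.58-fold, adjusted p = 2.6e-05) and 0.42 ± 0.06 in HTOXAR3 (1.34-fold, adjusted p = 0.00285). The addition of Curcumin changed it by -0.06 (95% interval -0.20 to 0.07) and 0.02 (-0.12 to 0.15). HTOXAR3 was higher than HT29 untreated (0.60), under OXA (0.36) and under the combination (0.44), each called. Over the 18 arrays, 6 groups of 3, *S100A16* and *S100A13* correlated at a Pearson r of 0.919, the highest r among pairs of the 10 genes.

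*S100A3*, a cysteine-rich member best known from the hair cuticle, had the largest OXA response of the 10 genes in HT29, at low intensities of 237 to 1185 before normalisation. Its levels in HT29 were 8.65, 8.56 and 8.24 untreated, 9.90, 9.68 and 9.87 under OXA, and 9.61, 9.60 and 9.64 under the combination. In HTOXAR3 they were 8.73, 8.64 and 8.78 untreated, 9.29, 9.27 and 9.23 under OXA, and 9.39, 9.58 and 9.53 under the combination. The untreated lines overlapped, whereas all treated arrays lay above all untreated arrays. OXA raised it by 1.33 ± 0.10 in HT29 (2.51-fold, adjusted p = 1.88e-06) and by 0.55 ± 0.10 in HTOXAR3 (1.46-fold, adjusted p = 0.011). The HTOXAR3 call was lost without HTOXAR3 untreated replicate 2 (0.51, adjusted p = 0.0695), without OXA replicate 1 (0.53, 0.0585) and without OXA replicate 2 (0.54, 0.056). Under OXA, *S100A3* was the member with the largest deficit in HTOXAR3 against HT29 (-0.55 ± 0.10, adjusted p = 0.00677). Within slides 2 and 3 its OXA response was 1.11 and 1.63 in HT29 and 0.60 and 0.47 in HTOXAR3.

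**Figure D3:**
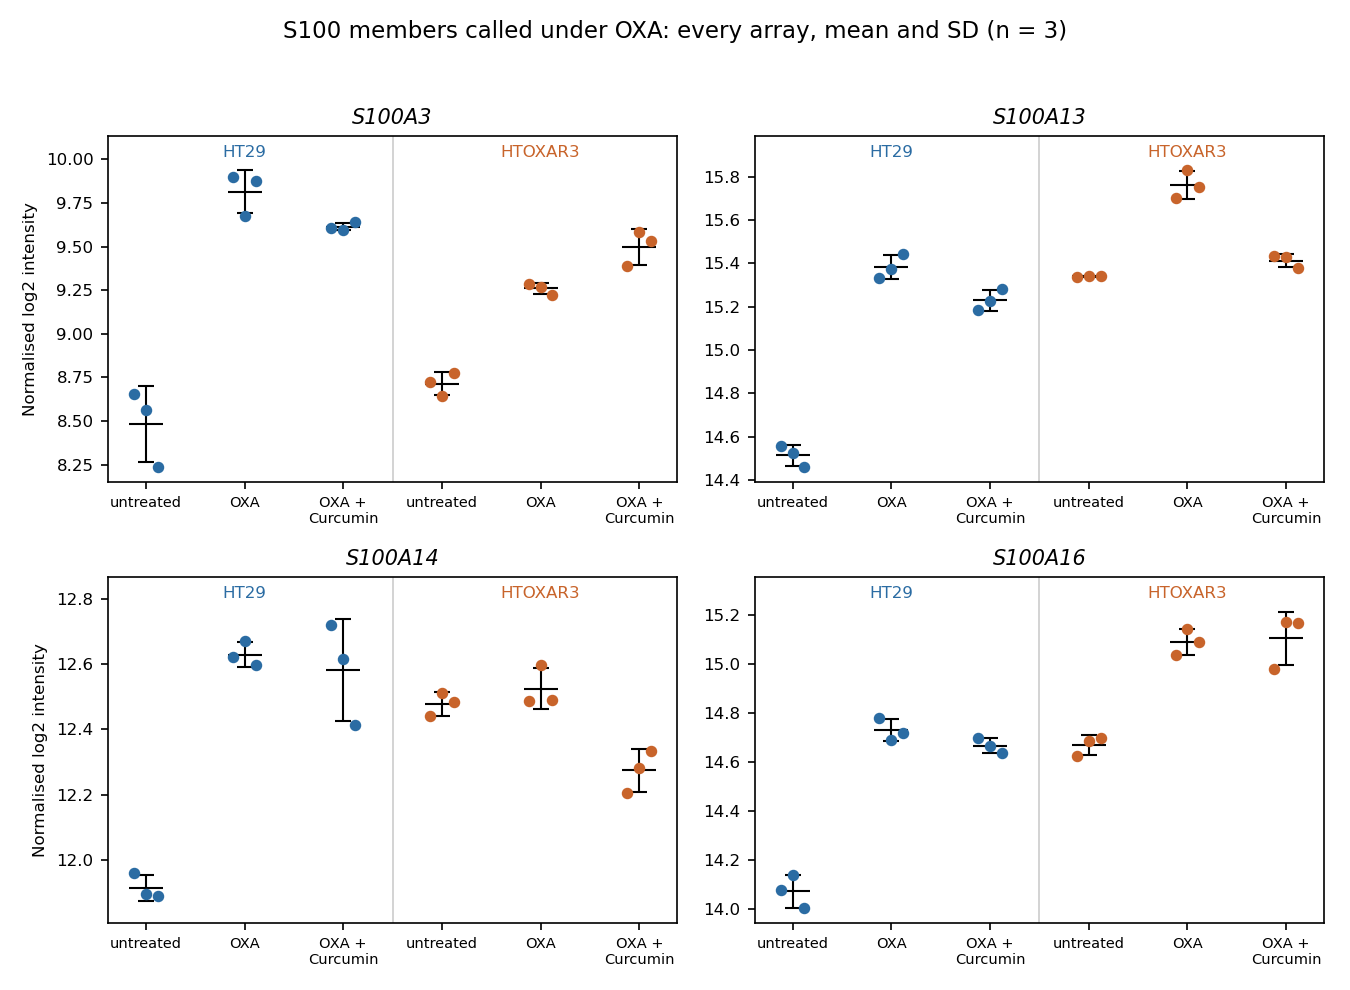
Normalised log2 intensity of *S100A3*, *S100A13*, *S100A14* and *S100A16* on every array, with replicates 1 to 3 from left to right in each group, the mean as a line and the SD as a bar (n = 3). Each panel has its own axis. Untreated HT29 is the lowest group for *S100A13* (14.51), *S100A14* (11.91) and *S100A16* (14.07).

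*S100P*, which also binds the membrane linker ezrin, was higher under OXA plus Curcumin than in any other group of either line. HT29 gave 17.33, 17.32 and 17.29 untreated, 17.20, 17.20 and 17.23 under OXA, and 17.93, 17.93 and 17.89 under the combination. HTOXAR3 gave 17.14, 17.19 and 17.13 untreated, 16.87, 17.01 and 16.92 under OXA, and 17.79, 17.77 and 17.90 under the combination. The 6 combination arrays lay above the other 12, and the lines overlapped under the combination and in no other condition. Adding Curcumin raised *S100P* by 0.71 ± 0.05 in HT29 (1.64-fold, adjusted p = 1.98e-05) and by 0.88 ± 0.05 in HTOXAR3 (1.84-fold, adjusted p = 1.68e-06). Against no treatment the combination gave 0.61 and 0.67, both called. Within slides 2 and 3 the addition gave 0.73 and 0.67 in HT29 and 0.91 and 0.87 in HTOXAR3. Under OXA alone, HTOXAR3 had 1.21-fold less *S100P* than HT29 (-0.27 ± 0.05, adjusted p = 0.0172). That call was lost without HT29 OXA replicate 1 (-0.28, adjusted p = 0.0513), replicate 2 (-0.28, 0.0681) or replicate 3 (-0.26, 0.078), without HTOXAR3 OXA replicate 1 (-0.24, 0.112) or replicate 3 (-0.26, 0.08), and on the 75th percentile scaling (-0.18, 0.667).

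*S100A4*, a RAGE ligand known for its role in cell motility through non-muscle myosin, fell in HTOXAR3 when Curcumin was added. HTOXAR3 carried it at 16.77, 16.82 and 16.80 untreated, 16.67, 16.80 and 16.70 under OXA, and 16.21, 16.22 and 16.20 under the combination. In HT29 it stood at 16.73, 16.66 and 16.56 untreated, 16.75, 16.72 and 16.72 under OXA, and 16.44, 16.54 and 16.71 under the combination. The 3 HTOXAR3 arrays with Curcumin were thus the lowest of the 18. The fall was 1.43-fold in HTOXAR3 (-0.51 ± 0.07, adjusted p = 0.00136), with -0.47 and -0.54 within slides 2 and 3, while HT29 gave -0.17 and was not called. Under the combination HTOXAR3 had less *S100A4* than HT29 (-0.35 ± 0.07, adjusted p = 0.0158). The call was lost without HT29 combination replicate 2 (-0.36, adjusted p = 0.0563) or replicate 3 (-0.28, 0.0749), without HTOXAR3 combination replicate 1 (-0.35, 0.0694), replicate 2 (-0.36, 0.0605) or replicate 3 (-0.35, 0.075), and on the 75th percentile scaling (-0.25, 0.193).

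The receptor gene *AGER* rose under OXA and fell when Curcumin was added, in both lines. It stood at 8.29, 8.13 and 7.95 in untreated HT29, 9.10, 9.19 and 9.26 under OXA, and 8.36, 8.58 and 8.58 under the combination. In HTOXAR3 the levels were 8.02, 8.28 and 7.89, then 8.72, 8.69 and 9.08, then 8.21, 8.26 and 8.05. OXA raised it by 1.06 ± 0.13 in HT29 (2.09-fold, adjusted p = 0.000224) and by 0.77 ± 0.13 in HTOXAR3 (1.70-fold, adjusted p = 0.00675). Adding Curcumin changed it by -0.68 ± 0.13 (adjusted p = 0.0298) and -0.65 ± 0.13 (adjusted p = 0.0258).

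*S100A2*, a nuclear member that binds p53, was higher in HTOXAR3 in every condition and fell under the combination in both lines. HTOXAR3 gave 13.53, 13.48 and 13.51 untreated, 13.12, 13.13 and 13.10 under OXA, and 12.65, 12.84 and 12.73 under the combination. HT29 gave 12.74, 12.94 and 12.54 untreated, 12.42, 12.47 and 12.48 under OXA, and 12.28, 12.36 and 12.45 under the combination. HTOXAR3 under the combination lay within the range of untreated HT29. The lines differed by 0.77 ± 0.09 untreated (1.70-fold, adjusted p = 0.000135) and by 0.66 ± 0.09 under OXA (1.58-fold, adjusted p = 0.000472). The combination lowered it in HTOXAR3 by 1.71-fold (-0.77 ± 0.09, adjusted p = 9.44e-05), whereas OXA alone (-0.39, adjusted p = 0.0514) and the addition of Curcumin (-0.38, adjusted p = 0.0649) each stayed short of the threshold. Both were called with an offset of 50, without dim probes and with Benjamini-Hochberg adjustment.

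In HT29 the combination gave -0.38 ± 0.09 for *S100A2* (adjusted p = 0.0379). Within slide 2 the value was -0.62 and within slide 3 it was -0.09. The call was lost without HT29 untreated replicate 1 (-0.38, adjusted p = 0.132) or replicate 2 (-0.28, 0.178), without HT29 combination replicate 1 (-0.34, 0.205) or replicate 2 (-0.38, 0.141), and with slide as a block (-0.39, 0.0977). Under the combination the lines differed by 0.38 ± 0.09 (adjusted p = 0.0495). That call was lost without any 1 of the 6 combination arrays, with values from 0.33 to 0.42, with the replicate block (0.38, adjusted p = 0.0621), with slide as a block (0.38, 0.105) and with all probes of a name averaged (0.38, 0.052).

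*S100A10* forms a tetramer with the annexin encoded by *ANXA2* at the plasma membrane and, unusually in this family, does not depend on calcium to do so. It was lower in HTOXAR3 in every condition. HT29 gave 16.78, 16.79 and 16.82 untreated, 16.73, 16.67 and 16.67 under OXA, and 16.71, 16.67 and 16.72 under the combination. HTOXAR3 gave 16.48, 16.48 and 16.56 untreated, 16.38, 16.36 and 16.40 under OXA, and 16.34, 16.31 and 16.28 under the combination. All 9 HT29 arrays lay above all 9 HTOXAR3 arrays. The differences were small: -0.29 ± 0.05 untreated (1.22-fold, adjusted p = 0.00498), -0.31 ± 0.05 under OXA (1.24-fold, adjusted p = 0.00187) and -0.39 ± 0.05 under the combination (1.31-fold, adjusted p = 0.000246). On the 75th percentile scaling the value under OXA was -0.23 (1.2-fold not reached), where the median of all names stood at -0.14. *ANXA2* itself differed by -0.03 between the untreated lines, with a 95% interval from -0.14 to 0.08, and was called only in HTOXAR3 under the combination (0.30 ± 0.05, adjusted p = 0.00545).

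*S100A11*, which binds annexins at membranes, was 1.30-fold higher in untreated HTOXAR3 and narrowly missed the threshold (0.38 ± 0.09, adjusted p = 0.0609). HT29 gave 13.83, 13.82 and 14.03 untreated and HTOXAR3 14.21, 14.30 and 14.30, without overlap. Its other probe gave 0.39 for the same comparison, 0.31 under OXA and 0.25 under the combination. In a limma fit over all probes neither was called untreated (adjusted p = 0.135 for the other probe and 0.073 for the one used). With all probes of a name averaged, *S100A11* was not called between the lines in any condition. Between the untreated lines the gene was called with Benjamini-Hochberg adjustment, with the replicate block, with slide as a block, with the 75th percentile scaling, with an offset of 50, without dim probes and without HT29 untreated replicate 3. Under OXA and under the combination it was called with the 75th percentile scaling, Benjamini-Hochberg adjustment, the replicate block and without dim probes. *S100A6*, or calcyclin, varied least, with group means from 17.86 to 18.10. Its largest differences were 0.19 between the untreated lines (95% interval 0.06 to 0.31) and -0.19 for the combination in HTOXAR3 (-0.32 to -0.07). On the 75th percentile scaling these values were 0.06, or -0.01 relative to the median of all names, and -0.38, or -0.20 relative to it, and the latter was called (adjusted p = 0.000754). *CACYBP*, the calcyclin-binding protein, fell in HT29 under OXA (-0.28 ± 0.06, adjusted p = 0.0407) and under the combination (-0.34), and *SUGT1*, a co-chaperone that also binds calcyclin, was higher in HTOXAR3 untreated (0.47 ± 0.10, adjusted p = 0.0321), under OXA (0.71) and under the combination (0.56). *ANXA11*, an annexin that binds *S100A6*, rose in HTOXAR3 when Curcumin was added (0.39 ± 0.06, adjusted p = 0.00358) and in HT29 under OXA (0.30 ± 0.06, adjusted p = 0.0141), and under the combination in both lines (0.44 and 0.50). Under OXA it was lower in HTOXAR3 than in HT29 (-0.41 ± 0.06, adjusted p = 0.00141).

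**Figure D4:**
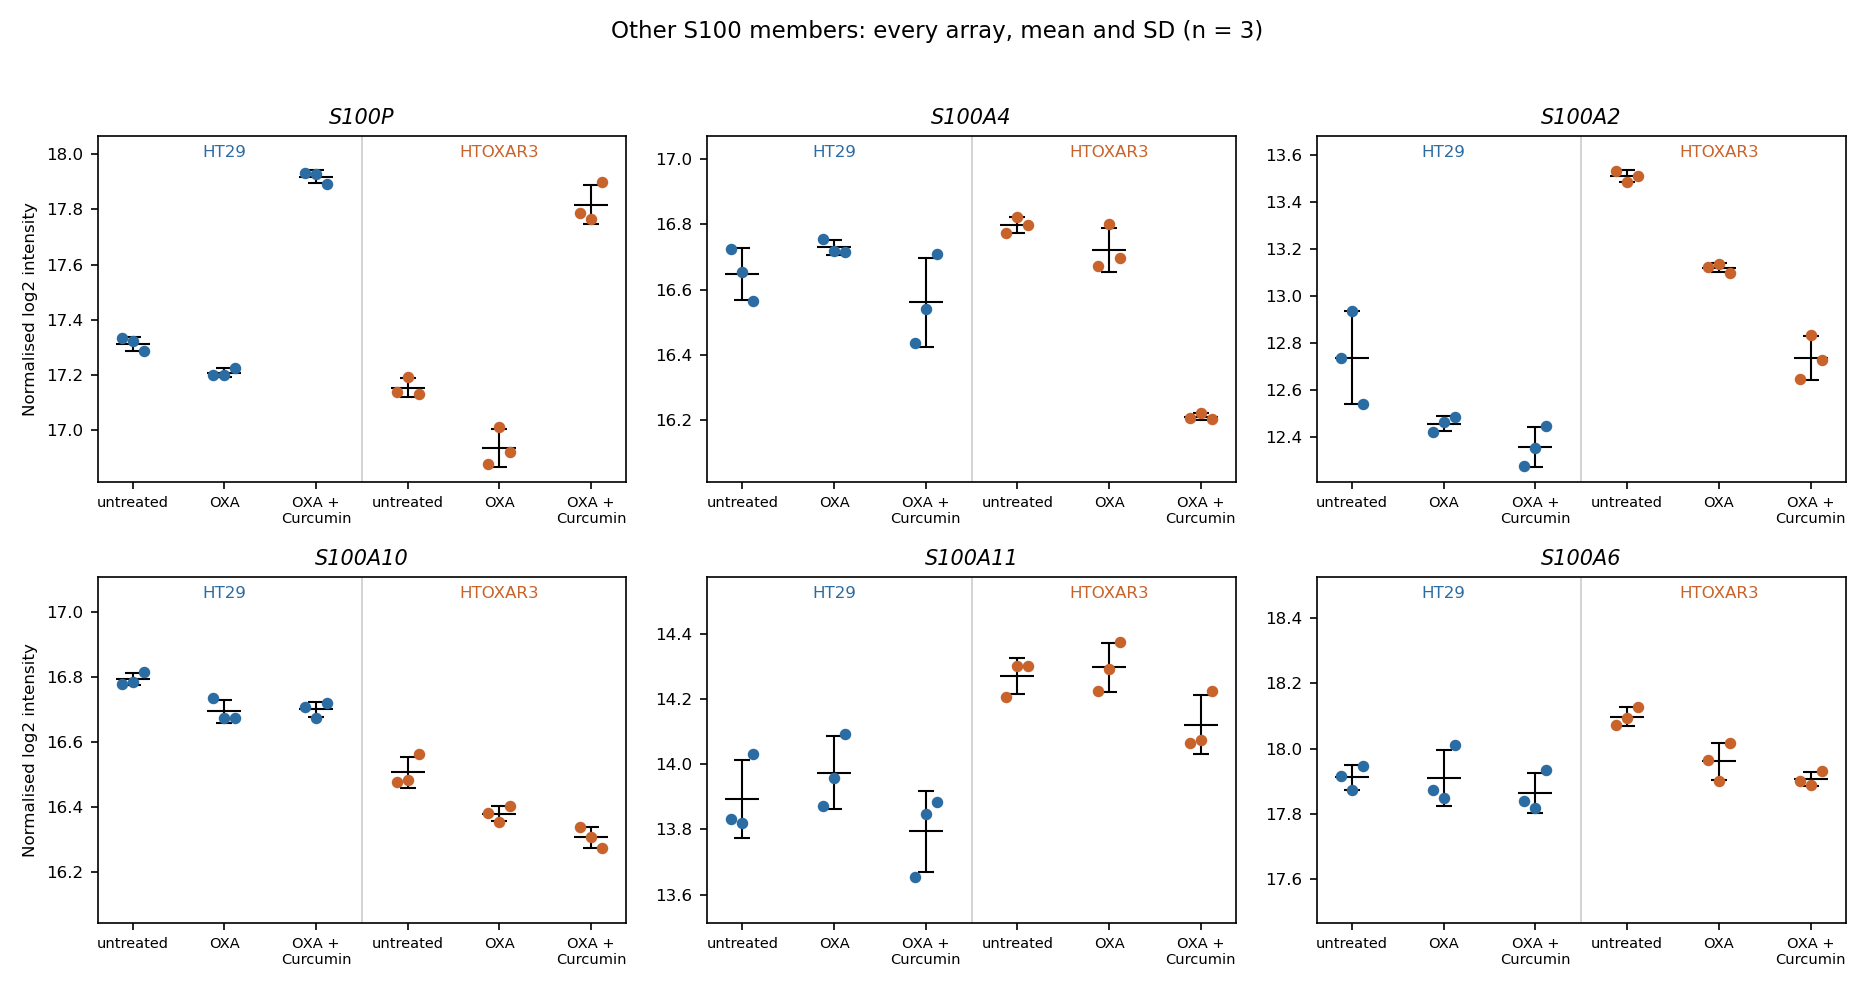
Normalised log2 intensity of *S100P*, *S100A4*, *S100A2*, *S100A10*, *S100A11* and *S100A6* on every array, with replicates 1 to 3 from left to right, the mean as a line and the SD as a bar (n = 3). Each panel has its own axis. *S100P* is highest under OXA plus Curcumin in both lines (17.92 and 17.82), and *S100A4* is lowest in HTOXAR3 under that treatment (16.21).

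Testing the difference between the responses asked where resistant cells answered differently from sensitive cells. For OXA, 0 of the 10 genes were called with a higher response in HTOXAR3, against 0.608% of all names, and 2 with a lower one, against 0.398%. Of detected names 1.23% and 0.733% were called. At an unadjusted p under 0.05 limma had 0 higher and 4 lower, with no share of all names computed at that threshold. *S100A14* gave -0.67 ± 0.10 (adjusted p = 0.0222) and *S100A13* gave -0.45 ± 0.08 (adjusted p = 0.0479). *S100A3* had the largest such difference and was not called (-0.78 ± 0.14, adjusted p = 0.0594), though it was with an offset of 50, without dim probes, with Benjamini-Hochberg adjustment and without HT29 untreated replicate 1. With slide as a block neither of the 2 calls remained, and leaving out single arrays gave 0 or 1 calls. *S100A14* kept its call without HTOXAR3 OXA replicate 2 and lost it without each of the other 11 arrays, with adjusted p up to 0.0897, while *S100A13* lost its call without any of the 12, with adjusted p from 0.0589 to 0.165. Within slides 2 and 3 the differences were -0.76 and -0.65 for *S100A14* and -0.49 and -0.53 for *S100A13*. The values themselves stayed between -0.71 and -0.65 for *S100A14* and between -0.48 and -0.42 for *S100A13* when 1 array was left out. With the replicate block and with all probes of a name averaged *S100A13* was not called, and 1 call remained. On the 75th percentile scaling *S100A13* gave -0.38 (adjusted p = 0.223), or -0.28 relative to the median of all names, and was not called either. Of the epithelial markers *VIL1* was also called with a lower response (-0.82, adjusted p = 0.00448), and its part in these differences was not tested.

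For the combination, 0 were called with a higher response in HTOXAR3, against 0.32% of all names, and again *S100A13* and *S100A14* with a lower one, against 0.536%. Of detected names 0.647% and 0.991% were called. At an unadjusted p under 0.05 limma had 0 higher and 5 lower, with no share of all names computed at that threshold. *S100A14* gave -0.87 ± 0.10 (1.83-fold, adjusted p = 0.00461), as 0.67 in HT29 stood against -0.20 in HTOXAR3. On the 75th percentile scaling the HTOXAR3 value was -0.16, or 0.02 relative to the median of all names. *S100A13* gave -0.64 ± 0.08 (1.56-fold, adjusted p = 0.00487), as 0.72 stood against 0.07. Both kept their calls in all 19 alternative fits, and within slides 2 and 3 they were -1.04 and -0.70 for *S100A14* and -0.59 and -0.76 for *S100A13*. *S100A4* gave -0.50 ± 0.10 and was not called (adjusted p = 0.122), but was with an offset of 50, without dim probes and with Benjamini-Hochberg adjustment (0.011). The epithelial markers *VIL1* (-0.82, adjusted p = 0.00762) and *LGALS4* (-0.65, adjusted p = 0.0419) were called lower in the same comparison, and their part in it was not tested. Among listed partner genes 1 was called here, *ERBB2*, a receptor tyrosine kinase counted among the partners of *S100A14*. It gave -0.75 ± 0.11 (adjusted p = 0.0175), with 12.51, 12.59 and 12.55 in untreated HTOXAR3 and 11.90, 11.92 and 11.88 under the combination.

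For the addition of Curcumin to OXA, 0 members were called in either direction, against 0.0276% of all names higher and 0.108% lower, and 0.0573% and 0.201% of detected names. At an unadjusted p under 0.05 limma had 2 higher (*S100A3* and *S100P*) and 3 lower (*S100A2*, *S100A4* and *S100A13*), and with Benjamini-Hochberg adjustment 0. The share of all names at the unadjusted threshold was not computed. The rise of *S100P* was 0.17 larger in HTOXAR3, with a 95% interval from 0.01 to 0.33, and was not called (adjusted p = 1). On the 75th percentile scaling that value was 0.05, or -0.03 relative to the median of all names. The fall of *S100A4* was 0.35 deeper in HTOXAR3, with an interval of the difference from -0.55 to -0.14 (adjusted p = 1).

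**Figure D5:**
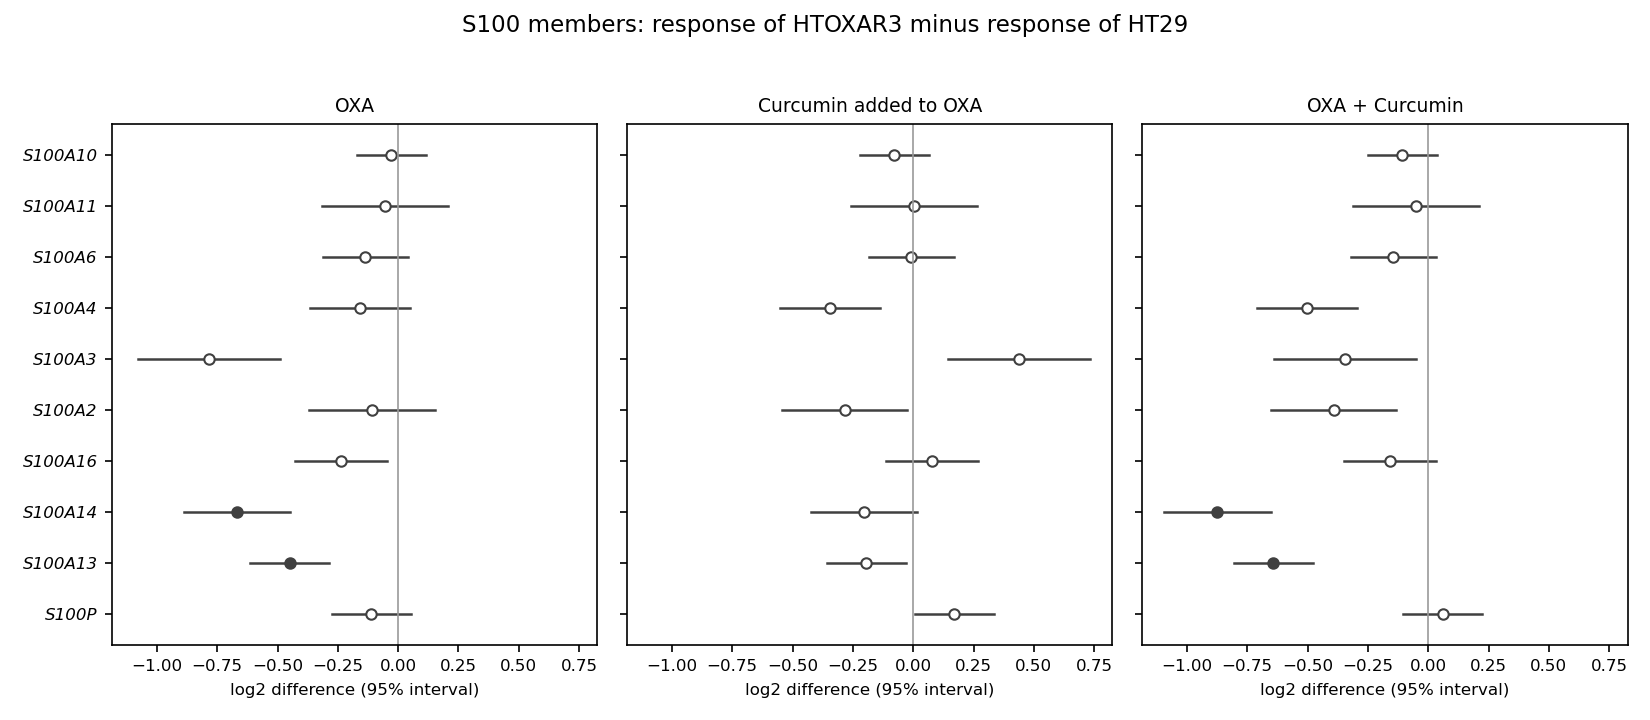
Response of HTOXAR3 minus response of HT29 (log2) for each member, for OXA, for Curcumin added to OXA and for OXA plus Curcumin. Bars are 95% intervals, and filled points were called. *S100A14* (-0.67 and -0.87) and *S100A13* (-0.45 and -0.64) are filled for OXA and for the combination.

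Of 11 further S100 names on the array, *S100A5* was well above background on all 18 arrays, *S100A7* on 17 and *S100A1* on 8, and 5 were above it on 0 (*S100A7A*, *S100A7L2*, *S100A8*, *S100B* and *S100G*). Between the untreated lines 0 of the 11 were called by limma, against 6.26% of all names higher and 5.28% lower, and their median was 0.11. With Benjamini-Hochberg adjustment 0 were called, and 1 had an unadjusted p under 0.05, for which no share of all names was computed. Over all 12 comparisons *S100A9* was called higher in HTOXAR3 under OXA and *S100Z* higher when Curcumin was added in HT29. Both were well above background on at most 7 arrays. Of 7 fused S100 genes, which join an S100 domain to long repeats and lie in the same region of chromosome 1, *TCHH*, trichohyalin, stood out. It gave 5.02, 4.87 and 4.95 in untreated HT29 against 8.59, 8.66 and 8.50 in untreated HTOXAR3, a difference of 3.63 ± 0.14 (12.4-fold, adjusted p = 2.88e-09). Its HT29 levels lay near the background limit. Under the combination, with a mean of 4.77, 2 of 3 HT29 arrays were well above background, so that the size of the fold is uncertain. In HTOXAR3 the combination lowered it by 1.22 on the log2 scale (-1.22 ± 0.14, adjusted p = 0.000135). Of 19 partner genes, 16 were well above background on all arrays. Between the untreated lines the calls were *SUGT1* and *IL1A* higher and 0 lower, and the median of the 19 was -0.12. The counts at an unadjusted p under 0.05 were 2 higher and 4 lower, again with no share of all names computed. *IL1A* was well above background on 0 arrays, so that no fold is given for it.

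The names whose levels followed the most variable members best were searched among 17399 names, over the 18 arrays. For *S100A13* these were *COPZ2* (r = 0.992), *PALM3* (0.986) and *MPRIP* (0.983), and for *S100A3* they were *GPN2* (0.971), *MMP7* (0.970) and *FNTA* (0.963). For *S100A2* they were *TRIM52-AS1* (0.978), *ME3* (0.975) and *NT5M* (0.973). The 18 arrays are 6 groups of 3, so that these r values describe how group levels line up.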

How the data were processed

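RNA of 18 cultures was labelled with Cy3 and hybridised to Agilent human arrays, and the authors deposited the scanner output, from which the mean spot intensity and the background intensity of each spot were taken. Deposited flags marked spots well above background or saturated. The authors' table of processed values was not used. Intensities were background corrected with normexp and quantile normalised on the log2 scale, and tested with limma and Benjamini-Yekutieli adjustment, as in the study's methods. The offset of 0 and the reduction to the brightest probe of each of 36204 names were chosen here. Differences were fitted with limma 3.58.1 in R 4.3.3 over all 18 arrays with 6 group terms, and p-values were adjusted over all names (Benjamini-Yekutieli), with calls at 0.05 and a fold of 1.2. Intervals cover 95%. The fit was tried on simulated data for the untreated lines only. That simulation had independent noise and no slide or replicate effect, so it cannot show how calls behave under such effects. The number of arrays limits the precision. The p-values rest on the spread between cultures of a group, pooled over all 6 groups and moderated by limma over all names.

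The members and gene lists were chosen with earlier results of these data known. Named genes were the 10 members, genes of the lists of further S100 members, fused S100 genes and partners called between the untreated lines or in a difference of responses, and *ANXA2*, *ANXA11*, *CACYBP* and *AGER*. Likeness was searched for the 3 members with the widest range of group means, 3 names each. Genes that were singled out beyond this rule (*S100A1*, *S100A7*, *S100A9*, *S100Z* and the markers *CDX2*, *VIL1*, *LGALS4*, *CDH17*, *CEACAM5*, *KRT20*, *CD68* and *COL1A1*) were chosen after their values were seen. Replicate numbers were checked as pairs by the correlation of deviations from group means: every pair exceeded 0.1 for the OXA response in HT29 (0.325 to 0.412, all 3 pairs on 1 slide each) and for the addition of Curcumin in HT29 (0.126 to 0.263), and not elsewhere. Alternatives were another offset, probes of a name averaged, dim probes removed, the scanner's processed signal on a 75th percentile scale, slide or replicate as a block, Benjamini-Hochberg adjustment, and leaving out each array. Values within slides were added after seeing the data.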

Additional observations from a re-analysis of the deposited data

Results flagged for a closer look

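The response to treatment differed between the lines by a test of the difference itself for 2 members. *S100A13* responded to OXA less in HTOXAR3 than in HT29 (-0.45 on the log2 scale), and so did *S100A14* (-0.67). For OXA plus Curcumin the differences were -0.64 for *S100A13* and -0.87 for *S100A14*. The OXA differences lost their calls in most alternatives and the combination differences in none. The lines received different OXA doses, so that line and dose cannot be told apart.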

How the results depend on the processing

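Of the 41 member differences that were called, 0 changed direction over 557 values from alternative fits, in which the call was kept 499 times and lost 58 times. Of 82 values taken within a slide, which have no test, 0 changed direction and 28 moved by more than the replicate SD. With the processed signal scaled to the 75th percentile, the calls under OXA went from 4 to 7 in HT29 and from 3 to 6 in HTOXAR3, and those for the difference of OXA responses from 2 to 1. Over all names the same counts went from 5774 to 6110, from 3709 to 4238 and from 364 to 455. On that scaling the median of all names shifted by -0.14 between the lines under OXA, by -0.10 and -0.19 under OXA and by -0.15 and -0.18 under the combination (HT29 and HTOXAR3), and by -0.10 for the difference of OXA responses. Relative to these shifts all 41 differences kept their sign. For the difference of OXA responses the mean of all probes left 1 call, slide as a block 0, and the replicate block 1. Leaving out 1 array gave 0 to 1 calls there, and 2 to 3 calls for the lines under OXA plus Curcumin in place of 4. The replicate block also removed *S100A2* between the lines under OXA plus Curcumin and no further called difference. It added *S100A11* in the 3 comparisons of the lines. It changed no call in the OXA response or the addition of Curcumin in HT29, where replicates of equal number deviated together. The labels do not say whether equal numbers share a batch, and for the OXA response in HT29 each pair also shared a slide. The cause was not tested. Signal over background limited none of the 10 genes, whereas 10 of the 11 further S100 names were not well above background on every array.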
